A study of Rattus norvegicus with 8 samples.

Results

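The genes described here make, break down or respond to prostaglandins, or belong to the lipoxygenase branch of the same lipid pathway, and they were followed in rat Achilles tendon after a single run. The 10 members were chosen by gene symbol: Ptgs1, Ptgs2, Ptges, Ptgis, Ptgds, Ptger2, Ptger4, Alox5, Alox12 and Hpgd. Of these, 8 had a row among the 15590 genes of the table, and all 8 passed the filter on low values and were tested. Ptgis and Ptgds, which make prostacyclin and prostaglandin D2, were not analysed here.

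Polyadenylated RNA was sequenced from the right Achilles tendon of 8 male wild-type Sprague-Dawley rats aged 8 to 10 weeks, with 1 library per rat. The 4 rats of the 0 h p.r. (post-run) group were killed immediately after 1 h on a treadmill at 20 m/min and an incline of 10 degrees. They had been given 10 min of training beforehand. The 4 naïve control rats (NC group) did not run. According to the methods of the study, NC rats were killed together with a group kept for some hours after its run, so the effect of running and that of the time of killing cannot be told apart. The comparison asks which of these genes differ in the tendon as soon as a run ends. Each p-value measures the spread between rats.

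Phospholipases free arachidonic acid from membranes, and the cyclooxygenases Ptgs1 and Ptgs2 convert it to prostaglandin H2. Terminal synthases such as Ptges turn this into prostaglandin E2 and its relatives, which act on cell surface receptors close to where they are made and are inactivated mainly by Hpgd. Lipoxygenases oxidise the same fatty acid to leukotrienes and hydroxy fatty acids. In tendon, prostaglandin E2 is known to be released under mechanical load, and the cyclooxygenases are the targets of the anti-inflammatory drugs given for tendon pain.

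Values are FPKM as deposited (fragments per kilobase of transcript, with a scale factor per library), which is a level per length, so that genes can be set side by side. Changes are differences of log2(FPKM + 0.5), 0 h p.r. minus NC, from limma with Benjamini-Hochberg adjustment over 13863 tested genes. A gene was called where the adjusted p was under 0.05 and the change at least 2-fold. Recovered reads per library ranged from 11350560 in NC replicate 2 to 17897056 in 0 h p.r. replicate 4. The deposited scale factors were not in proportion to these reads. That of NC replicate 2 was 0.557 of that of NC replicate 1, which had 16484163 reads. The 13 mitochondrial genes made up 31.1% of the summed FPKM in NC replicate 2 and 16.3% to 21.9% in the other libraries. All 8 tendon markers looked for (among them Tnmd and Scx) were in the table, with a summed FPKM of 3777 to 7451 in NC and 4154 to 7450 in 0 h p.r. The summed FPKM of 8 skeletal muscle markers was 4676 to 6841 in NC and ranged from 984 (replicate 4) to 29502 (replicate 1) after the run. In bulk tissue, fewer cells of a type and less RNA per cell cannot be told apart.

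No member was called at both thresholds (0 of 8, with limma), against 2.70% of all tested genes. The study itself, with DESeq2 on read counts and the same thresholds, reported Ptgs2 and Alox12 as up-regulated after the run. It also listed Hpgd among its differentially expressed genes. The count of 0 therefore holds for limma on FPKM only. Of the 8 members, 1 had an adjusted p under 0.05 at any fold (Ptger4, higher after the run), where the share of all tested genes was 5.72%. At an unadjusted p under 0.05, 5 of 8 members passed (Ptgs1, Ptgs2, Ptger4, Alox12 and Hpgd), against 22.6% of all tested genes. All 4 values of 1 group lay apart from the 4 of the other for Ptger4, which was higher after the run, or for Ptgs1 and Hpgd, which were lower. Among all tested genes, 8.15% lay apart and higher and 7.47% lay apart and lower. The estimate was above 0 for 5 members and below 0 for 3, with a median log2 change of 0.41 over the 8 members and -0.0014 over all tested genes. The members and the further gene lists below were chosen with earlier results of these data known. Counts and medians set beside those of all tested genes are thus a description and not a test of the set.

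**Figure D1:**
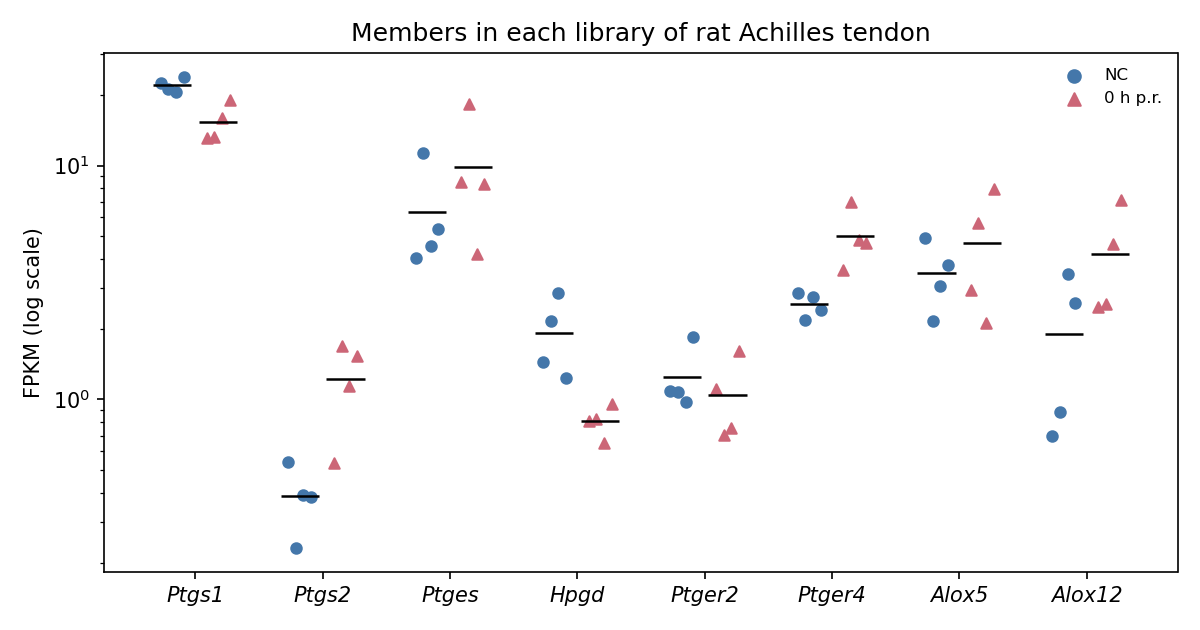
FPKM (log scale) of the 8 members in the 4 NC libraries (circles) and the 4 0 h p.r. libraries (triangles), with group means as bars. The groups lie apart for Ptgs1, Hpgd and Ptger4, and 3 of the 4 0 h p.r. values of Ptgs2 lie above all NC values.

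The levels of the members spanned a wide range in the tendons of rats that had not run. Ptgs1 was the most abundant (22.1 ± 1.49 FPKM in NC, SD, n = 4), and its lowest NC value lay above the highest of any other member. Ptges came next with 6.29 ± 3.36 (SD, n = 4), then Alox5 with 3.46 ± 1.15, Ptger4 with 2.55 ± 0.303, Hpgd with 1.92 ± 0.730, Alox12 with 1.90 ± 1.33 and Ptger2 with 1.25 ± 0.405. Each neighbouring pair from Ptges down to Ptger2 had overlapping NC values. Ptgs2 was the least abundant at 0.386 ± 0.126 (SD, n = 4), and its highest NC value lay below the lowest value of Ptger2. After the run Ptgs1 and Ptges had overlapping values, Ptgs2 (1.23 ± 0.519 FPKM) had a higher mean than Ptger2 (1.05 ± 0.418), and Hpgd had the lowest mean (0.809 ± 0.125).

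The cyclooxygenases are shown with the 250 bases upstream of their gene starts, since the 2 paralogues catalyse the same reaction while the estimates of their changes lay in opposite directions, and with that of Ptger4, whose level followed that of Ptgs2 across libraries. The sequences are from RefSeq (build GRCr8, which is not the build of the reads), read 5′ to 3′ on the strand of the gene. Ptgs1 is at chr3:39981169-39981418 (plus strand), Ptgs2 at chr13:64713813-64714062 (plus strand) and Ptger4 at chr2:56073523-56073772 (minus strand). Capitals mark each match to 1 of 8 motifs searched on both strands, and 9 of the 10 members had such a sequence (not Ptgis).
Ptgs1: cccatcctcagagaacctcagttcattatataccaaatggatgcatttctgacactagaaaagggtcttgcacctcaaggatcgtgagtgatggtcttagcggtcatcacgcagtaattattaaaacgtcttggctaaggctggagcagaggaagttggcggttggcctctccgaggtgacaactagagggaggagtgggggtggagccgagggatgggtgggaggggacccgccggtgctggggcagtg
Ptgs2: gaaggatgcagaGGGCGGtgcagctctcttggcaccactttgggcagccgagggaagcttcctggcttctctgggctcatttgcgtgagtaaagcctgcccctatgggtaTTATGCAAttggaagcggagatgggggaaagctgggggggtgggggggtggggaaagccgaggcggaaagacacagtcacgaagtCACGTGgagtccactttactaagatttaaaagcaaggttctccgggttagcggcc
Ptger4: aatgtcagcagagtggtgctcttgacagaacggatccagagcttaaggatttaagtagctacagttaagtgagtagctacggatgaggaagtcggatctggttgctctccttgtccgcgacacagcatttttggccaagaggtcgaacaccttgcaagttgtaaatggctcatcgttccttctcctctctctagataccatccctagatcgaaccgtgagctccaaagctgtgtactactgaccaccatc
The Ptgs2 window held an E-box (CACGTG) 55 to 50 bases before the gene start, where 5.6% of 33469 rat promoter windows hold this motif. It also held a C/EBP motif (TTNNGNAA) at 140 to 133 bases, found in 37.2% of windows, and a GC box (GGGCGG) at 238 to 233 bases, found in 30.5%. No match overlapped another. The Ptgs1 and Ptger4 windows held none of these letters, nor the AP-1 motif TGANTCA (6.3% of windows), the half-site TGACG of the cyclic AMP response element (18.2%), TATAAA (12.9%), the NF-kB consensus (3.5%) or the SRF CArG box (1.5%). The Hpgd window held TGACG at 136 to 132 bases and a GC box at 99 to 94 bases, and the Alox5 window held an NF-kB consensus match at 143 to 134 bases. These matches describe the windows and are not evidence of binding.

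Ptgs2, the inducible cyclooxygenase that many cells switch on after a stimulus, had low counts in every library. NC replicates 1 to 4 had 0.540, 0.231, 0.389 and 0.384 FPKM, and 0 h p.r. replicates 1 to 4 had 0.533, 1.70, 1.14 and 1.53. The values of 0 h p.r. replicates 2, 3 and 4 lay above all of NC, and that of replicate 1 lay just under the highest NC value. The reads behind them numbered 42, 10, 25 and 25 in NC and 31, 135, 64 and 121 in 0 h p.r. The mean FPKM was 3.18-fold that of NC, and the log2 change was 0.92 (SE 0.26, limma 95% interval 0.34 to 1.50, adjusted p = 0.0709). The size of this estimate depends on the pseudocount, at 1.38 with 0.1 and 0.66 with 1 (limma, adjusted p = 0.0731 and 0.0735). Voom on the recovered reads, which changes more than the pseudocount, gave 1.57 (limma, adjusted p = 0.0720). Without 0 h p.r. replicate 1, which had the highest muscle marker sum, the log2 change was 1.14 and Ptgs2 was called (limma, adjusted p = 0.0294). Leaving out any other library gave a limma adjusted p of 0.108 to 0.189, and scaling each library to the same total gave 0.232. Bone markers (8 of 8 in the table, 6 of 6 tested with an estimate above 0, none called) summed to 24.1, 15.4, 25.5 and 63.6 FPKM in NC and 77.1, 135, 58.0 and 199 after the run, where replicates 2 and 4 were highest for Ptgs2 too. Cartilage markers (5 of 5 tested with an estimate above 0, none called) summed to 10.8 to 96.9 FPKM in NC and 104 to 404 after the run, so that bone and cartilage markers lay higher in the same group as Ptgs2, Ptger4 and Ptgir. The part of muscle, bone or cartilage RNA in these values was not tested.

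Ptgs1, the cyclooxygenase that most tissues express at rest, was lower in every 0 h p.r. tendon than in any NC tendon. It had 22.6, 21.2, 20.7 and 24.0 FPKM in NC replicates 1 to 4 and 13.1, 13.3, 16.0 and 19.1 after the run, from 488 to 1128 reads per library. The NC values lay close together and the 0 h p.r. values spread more, with replicate 4 nearest to NC. After the run, Ptgs1 was lowest in the library with the highest muscle marker sum (replicate 1) and highest in that with the lowest (replicate 4). The order broke between them, since replicate 3 had both a higher muscle sum than replicate 2 (13974 against 5217 FPKM) and a higher Ptgs1. The summed FPKM of 9 adipocyte markers was 2524 to 4670 in NC and 856, 1215, 1603 and 1823 after the run, there in the order of Ptgs1. Within NC that order was not kept, since Ptgs1 was highest in replicate 4 (adipocyte sum 2530). The part of muscle or adipose RNA in this result was not tested. The mean FPKM was 0.694 of that in NC, and the log2 change was -0.53 (SE 0.14, limma 95% interval -0.84 to -0.21, adjusted p = 0.0605). Without 0 h p.r. replicate 4 the log2 change was -0.64 (limma, adjusted p = 0.0201), which is past the p threshold but short of a fold of 2. Leaving out any other library gave a limma adjusted p of 0.0756 to 0.168, and scaling each library to the same total gave 0.411.

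The balance between the cyclooxygenases differed in the same libraries. Ptgs2 made up 2.33%, 1.08%, 1.85% and 1.58% of the summed Ptgs1 and Ptgs2 FPKM in NC replicates 1 to 4. In 0 h p.r. its share was 3.91%, 11.4%, 6.67% and 7.42%. All 4 shares after the run lay above all 4 NC shares, although Ptgs1 remained the more abundant in every library. These shares follow from the values of both genes given above and were not tested apart from them.

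Ptges, the inducible synthase that makes prostaglandin E2 from the product of the cyclooxygenases, varied widely among rats of the same group. The 4 NC tendons gave 4.04, 11.3, 4.51 and 5.36 FPKM, and those after the run gave 8.52, 18.4, 4.17 and 8.30. The groups overlapped, with NC replicate 2 above 3 of the 4 0 h p.r. values. The mean FPKM was 1.56-fold that of NC, and the log2 change was 0.54 with a limma 95% interval of -0.43 to 1.51 (adjusted p = 0.518), which leaves a rise of more than 2-fold and a modest fall both within the interval.

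Hpgd, the dehydrogenase that starts the inactivation of prostaglandin E2, was lower in every 0 h p.r. tendon. In NC it stood at 1.44, 2.17, 2.84 and 1.24 FPKM, and after the run at 0.807, 0.821, 0.651 and 0.957. All 4 values after the run lay below the lowest NC value, and they lay closer together than those of NC. The gene had 14 to 70 reads per library. The mean FPKM was 0.421 of that in NC, and the log2 change was -0.84 (SE 0.22, limma 95% interval -1.35 to -0.34, adjusted p = 0.0611).

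The level of Ptges over that of Hpgd, synthesis against breakdown of the same prostaglandin at the RNA level, was 2.80, 5.20, 1.59 and 4.32 in NC. After the run it was 10.6, 22.4, 6.40 and 8.67, so that the groups lay apart. Those of Hpgd alone also lay apart, as given above, and those of Ptges alone did not. This ratio is a description and was not tested.

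Ptger4, the receptor for prostaglandin E2 known as EP4, which raises cyclic AMP, was the member with the lowest p. The NC values were 2.86, 2.19, 2.73 and 2.42 FPKM and those after the run 3.57, 7.00, 4.82 and 4.66, from 32 to 187 reads. All 4 values after the run lay above all of NC, with replicate 2 the highest. Mean FPKM rose 1.97-fold, from 2.55 ± 0.303 to 5.01 ± 1.43 (SD, n = 4 per group). The log2 change was 0.82 (SE 0.19, limma 95% interval 0.39 to 1.26, adjusted p = 0.0420). Leaving out 0 h p.r. replicate 1 gave an adjusted p of 0.0366, and leaving out any other library gave 0.0511 to 0.106, whichever the group, and the log2 change stayed between 0.66 and 0.96 over these 8 fits. With voom on the recovered reads the adjusted p was 0.0540, and with each library scaled to the same total it was 0.270 at a log2 change of 0.86.

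Ptger2, the receptor EP2, which also raises cyclic AMP, gave a different picture. Its NC values were 1.09, 1.08, 0.974 and 1.85 FPKM, against 1.11, 0.703, 0.757 and 1.61 after the run. The groups overlapped, with replicate 4 the highest in each. The log2 change was -0.19 with a limma 95% interval of -0.72 to 0.34 (adjusted p = 0.701). The level of Ptger4 over that of Ptger2 was 1.31 to 2.80 in NC and 2.89 to 9.95 in 0 h p.r.

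The other prostanoid receptors were taken from a list of 38 further genes of arachidonic acid metabolism, of which 27 were in the table and 26 were tested. Both genes called on this list were receptors (Ptgir higher, Ptger3 lower), that is 2 of 26 beside the 2.70% of all tested genes. Ptgir, the prostacyclin receptor, which raises cyclic AMP, stood at 6.75, 4.69, 7.04 and 5.80 FPKM in NC and at 12.7, 14.1, 17.4 and 10.2 after the run. All 4 values after the run lay above all of NC. Mean FPKM rose 2.24-fold and the log2 change was 1.09 (SE 0.19, limma 95% interval 0.67 to 1.51, adjusted p = 0.0135). The call was lost when 0 h p.r. replicate 2 was left out (adjusted p = 0.0529), and the log2 change fell short of a fold of 2 when NC replicate 2 (0.98) or 0 h p.r. replicate 3 (0.97) was. It was also lost with each library scaled to the same total, where the log2 change was 1.11 (limma, adjusted p = 0.111).

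Ptger3, the receptor EP3, which lowers cyclic AMP, lay in the other direction. The NC tendons had 15.6, 7.77, 6.14 and 6.23 FPKM and the 0 h p.r. tendons 1.77, 2.49, 2.41 and 3.99. All 4 values after the run lay below all of NC, in which replicate 1 was the highest. Mean FPKM fell to 0.298 of that in NC, and the log2 change was -1.52 (SE 0.31, limma 95% interval -2.22 to -0.81, adjusted p = 0.0284). Leaving out NC replicate 2 gave an adjusted p of 0.0553, and it was 0.0711, 0.0907 and 0.0805 without 0 h p.r. replicates 1, 2 and 3. Scaling each library to the same total gave 0.0932 with a log2 change of -1.57.

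Adipocyte markers lay lower in the same group as Ptger3 and Hpgd, and as Ptgs1 above and Tbxa2r and Cysltr1 below. All 9 of the 9 adipocyte markers on a fixed list (among them Adipoq and Plin1) had a lower estimate after the run, 5 of them called, and their summed FPKM was 4670, 4354, 2524 and 2530 in NC and 856, 1215, 1603 and 1823 in 0 h p.r. None of the defining markers was missing from the table. Ptger3 was highest in NC replicate 1, which had the highest adipocyte sum, and lowest in 0 h p.r. replicate 1, which had the lowest. Hpgd did not keep this order, since replicate 3 had its highest value within NC and its lowest after the run. Ptgs1 and Tbxa2r ranked as the adipocyte sums did after the run, but not within NC. Cysltr1 was lowest in 0 h p.r. replicate 4, which had the highest adipocyte sum of its group. The part of adipose RNA in these results was not tested.

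**Figure D2:**
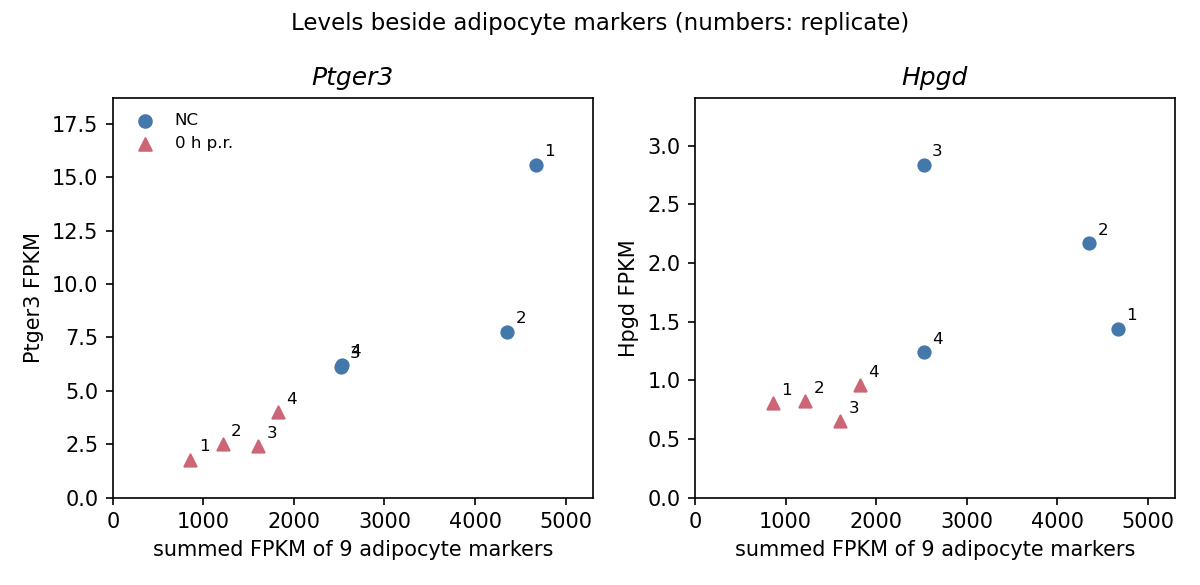
FPKM of Ptger3 (left) and Hpgd (right) against the summed FPKM of 9 adipocyte markers in each library, NC as circles and 0 h p.r. as triangles, with the replicate number beside each point. The 0 h p.r. libraries lie at 856 to 1823 summed FPKM and the NC libraries at 2524 to 4670, and both genes are lower in the former.

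Another receptor lay apart without being called. Tbxa2r, the thromboxane receptor (chosen after its values were seen), stood at 1.07, 1.55, 1.12 and 1.03 FPKM in NC and at 0.477, 0.641, 0.701 and 0.731 after the run. All 4 values after the run lay below all of NC, from 12 to 36 reads, and the log2 change was -0.57 (limma, adjusted p = 0.0839). After the run they ranked as the adipocyte marker sums did, and the part of adipose RNA in Tbxa2r was not tested. The limma adjusted p of Tbxa2r was 0.0438 with array weights, 0.0681 to 0.277 under the other settings that kept all libraries, and 0.0848 to 0.184 when a library was left out. The 2 other tested prostanoid receptors, Ptger1 and Ptgfr, had overlapping groups. Among the prostaglandin E2 receptors, the level of Ptger4 over that of Ptger3 was 0.184, 0.282, 0.444 and 0.388 in NC and 2.02, 2.82, 2.00 and 1.17 in 0 h p.r. Ptger3 was thus the more abundant of this pair in all 4 NC tendons and Ptger4 in all 4 after the run, a description with no test of its own.

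**Figure D3:**
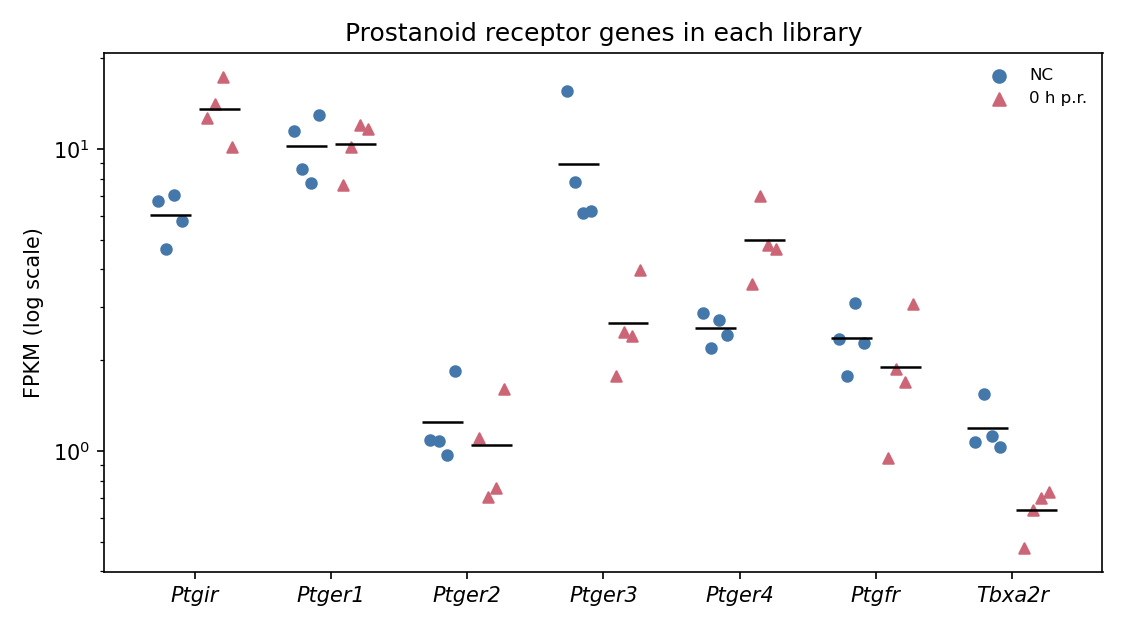
FPKM (log scale) of 7 prostanoid receptor genes in the 4 NC libraries (circles) and the 4 0 h p.r. libraries (triangles), with group means as bars. Ptgir and Ptger4 lie higher after the run with no overlap, Ptger3 and Tbxa2r lie lower with no overlap, and Ptger1, Ptger2 and Ptgfr overlap.

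Alox12, the 12-lipoxygenase first described in platelets, had a high estimate and a wide spread. The NC tendons had 0.695, 0.886, 3.43 and 2.58 FPKM, and those after the run 2.49, 2.56, 4.62 and 7.13. NC fell into a low pair (replicates 1 and 2) and a higher pair, and the higher pair overlapped the values after the run. The mean FPKM was 2.21-fold that of NC, and the log2 change was 1.04 (SE 0.45, limma 95% interval 0.03 to 2.05, adjusted p = 0.211). Its reads numbered 27 to 396 per library. Of 8 platelet markers, 4 were in the table. Pf4 had 28.1 to 49.2 FPKM in NC and 19.9 to 48.0 after the run and made up most of their sum, while Itga2b had 0.685 to 1.32 over all libraries and Gp9 and Treml1 at most 0.695. Cartilage markers (7 of 8 in the table) summed to 33.5, 10.8, 80.0 and 96.9 FPKM in NC and 158, 264, 104 and 404 after the run, and Alox12 was likewise higher in NC replicates 3 and 4 than in 1 and 2 and highest in 0 h p.r. replicate 4. The order broke in 0 h p.r. replicate 3, which had the lowest cartilage sum of its group and the next highest Alox12. It also broke inside each NC pair, where the library with the higher cartilage sum had the lower Alox12. The part of cartilage RNA in the Alox12 values was not tested.

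Alox5, the 5-lipoxygenase of leukocytes that begins leukotriene synthesis, stood at 4.88, 2.16, 3.05 and 3.74 FPKM in NC and at 2.93, 5.68, 2.13 and 7.95 after the run. The groups overlapped, with the lowest value of each nearly equal, and replicates 2 and 4 were the highest after the run. The log2 change was 0.28 with a limma 95% interval of -0.56 to 1.13 (adjusted p = 0.723), and it was -0.01 without 0 h p.r. replicate 4. Macrophage markers, 8 of 8 in the table and none called, summed to 416, 356, 229 and 403 FPKM in NC and 227, 387, 234 and 429 after the run, where replicates 2 and 4 were again the highest. Within NC the order was not kept, since replicate 2 had the lowest Alox5 and replicate 3 the lowest macrophage sum. The part of macrophage RNA in the Alox5 values was not tested. Neutrophil markers (4 of 8 in the table, 2 tested) summed to 1.44 to 4.67 FPKM in NC and 1.51 to 2.24 after the run, and both tested markers were called by limma in opposite directions. S100a9 was higher (0.191 to 0.746 FPKM in NC and 1.05 to 1.71 after the run) and Mpo lower (1.10 to 2.98 and 0.238 to 0.460). Alox5ap, the partner that presents arachidonic acid to the enzyme (chosen after its values were seen), stood at 17.1, 18.8, 11.3 and 16.0 FPKM in NC and at 8.59, 15.4, 9.39 and 22.6 after the run, where replicates 2 and 4 were highest. Its log2 change was -0.25 (limma, adjusted p = 0.688).

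Among the other genes of the leukotriene branch, 0 of the 6 tested were called at both thresholds, beside 2.70% of all tested genes, and 1 had an unadjusted p under 0.05, beside 22.6% (limma). That gene was Cysltr1, the receptor for cysteinyl leukotrienes, at 12.0, 12.7, 10.3 and 11.8 FPKM in NC and 6.38, 7.59, 9.41 and 5.73 after the run. All 4 values after the run lay below all of NC, the group with the higher adipocyte marker sums, and the part of adipose RNA was not tested. Cysltr1 fell by 0.67 on the log2 scale (SE 0.16, limma adjusted p = 0.0445), short of a fold of 2. The limma adjusted p was 0.0349 without 0 h p.r. replicate 3 and 0.0584 to 0.122 without any other library. With each library scaled to the same total it was 0.229. Ltc4s, the synthase of leukotriene C4, had 8.89, 3.39, 6.19 and 7.17 FPKM in NC and 6.39, 10.9, 7.40 and 19.1 after the run. Its groups overlapped, with replicates 2 and 4 highest after the run as for Alox5, and its log2 change was 0.67 (limma, adjusted p = 0.317). Alox15 was in the table but did not pass the filter on low values.

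The steps before and after the cyclooxygenases gave no call by limma in 15 tested genes, of which 2 had an unadjusted p under 0.05. The shares over all tested genes were 2.70% and 22.6%. Both were phospholipases. Pla2g2a, a secreted phospholipase, was abundant at 187, 368, 148 and 189 FPKM in NC and 279, 457, 320 and 385 after the run. NC replicate 2 lay within the range after the run, and the log2 change was 0.75 (adjusted p = 0.155). Without NC replicate 2, the library with the highest mitochondrial share, the log2 change was 1.03 and Pla2g2a was called (limma, adjusted p = 0.0296), as it was with array weights (1.05, adjusted p = 0.0126). Without any other library the limma adjusted p of Pla2g2a was 0.164 to 0.337. It was 0.199 with each library scaled to the same total. Pla2g12a, another secreted phospholipase, had 28.1, 24.1, 22.5 and 20.3 FPKM in NC and 25.1, 14.1, 10.5 and 10.5 after the run, where only replicate 1 lay within the NC range. Its log2 change was -0.72 (limma, adjusted p = 0.141). Leaving out 0 h p.r. replicate 1 gave -0.99 with an adjusted p of 0.0218, short of a fold of 2. Without any other library the limma adjusted p of Pla2g12a was 0.175 to 0.317. It was 0.270 with each library scaled to the same total.

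The 6 other prostanoid synthases had log2 changes of -0.27 to 0.10. The lowest was that of Akr1b1, an aldo-keto reductase that can make prostaglandin F2 alpha, at 75.8 to 116 FPKM in NC and 71.7 to 87.0 after the run. Prxl2b, also a prostaglandin F synthase, had 28.4 FPKM in 0 h p.r. replicate 1, the library with the highest muscle marker sum, and 4.10 to 10.1 in the other 3, beside 7.43 to 9.67 in NC. Its log2 change was 0.10 and turned to -0.40 without that library. The 4 genes of transport and breakdown beside Hpgd lay between -0.15 (Slco2a1, the importer that takes prostaglandins up for breakdown) and 0.07 on the log2 scale. Ptgr1, a reductase of the later breakdown steps, had a log2 change of -0.10 (limma, adjusted p = 0.793). Hpgd thus had a lower estimate than any of these 4 genes, a difference that was not tested.

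**Figure D4:**
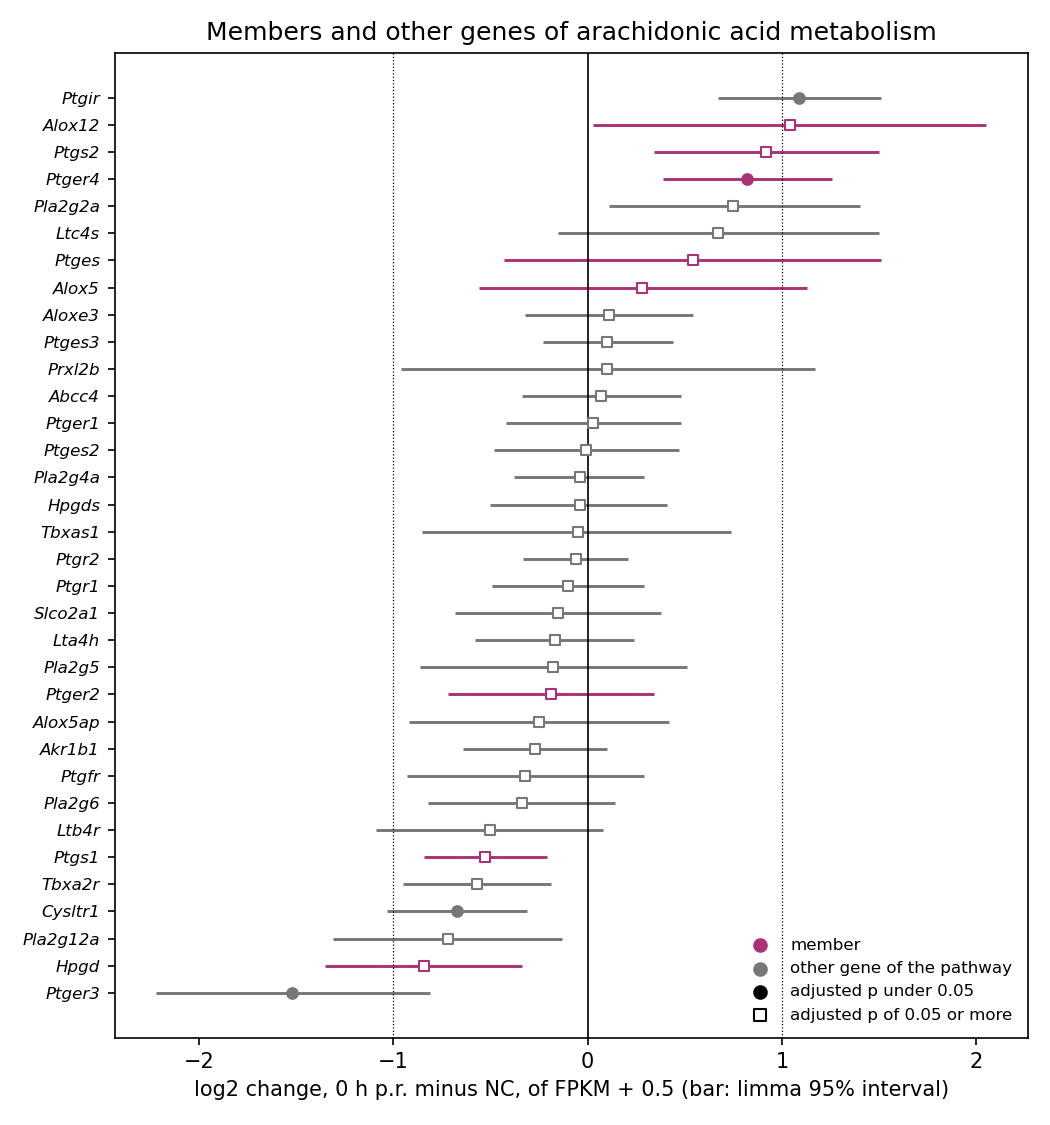
Log2 change (0 h p.r. minus NC, of FPKM + 0.5) with limma 95% intervals for the 8 members and the 26 other tested genes of arachidonic acid metabolism. Filled circles mark an adjusted p under 0.05 (Ptgir, Ptger4, Cysltr1 and Ptger3), open squares the others, and dotted lines a fold of 2.

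The level of Ptgs2 across all 8 libraries ran closest to those of ST7 (Pearson r = 0.963), Atp6v1a (0.961), Camkk1 (0.958), Wbp4 (0.956) and its fellow member Ptger4 (0.955). For Ptger4 the closest were Numbl (0.981), Iffo1 (0.974), Cggbp1 (0.966), Fam107b (0.960) and Psme3 (0.959). These correlations are over 8 libraries that share the difference between groups, and they are given as a description. Of these genes, Iffo1 (log2 change 1.17, adjusted p = 0.0131) and Numbl (0.71, adjusted p = 0.0380) had an adjusted p under 0.05 in limma, beside Ptger4 itself.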

How the data were processed

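Stranded libraries of polyadenylated RNA were aligned by the authors to Rnor_6.0 with HISAT2 2.1.0 and counted with featureCounts 1.6.3, and the deposited FPKM values per gene and library come from these counts. The deposited fold changes and p-values, made with DESeq2 1.30.1, are the authors' own comparison and were not used. Groups and replicate numbers came from the sample titles.

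A gene was tested if 4 or more of the 8 libraries reached 0.5 FPKM (13863 of 15590 genes). Values were transformed to log2(FPKM + 0.5), which understates the change of low genes, and the groups were compared by limma (version 3.58.1, R 4.3.3) with lmFit and eBayes with trend, two-sided, with no covariate and with Benjamini-Hochberg adjustment over all tested genes. The test was run first on simulated data. Whole reads were recovered from the steps between FPKM values for 15590 of 15590 genes (tolerance 0.02 reads). They give the depth and served for limma's voom as an alternative. Read counts limit precision through counting error only. Summed over genes, FPKM came to 554130 to 900138 per library.

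The members and the gene lists were chosen with earlier results of these data known. Named genes are the members, the called genes of the pathway list, the 2 with the largest change in each of its 5 role groups, and the 5 most correlated with Ptgs2 and with the member of lowest p, by symbol. Alternatives were pseudocounts of 0.1 and 1, no filter, a mean FPKM of at least 2, scaling each library to the same total, quantile normalization, a block for the replicate number, array weights, voom, the adjusted p alone and leaving out each library. Promoter sequences are from RefSeq (GRCr8), with motifs searched by pattern in the 250 upstream bases.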

Additional observations from a re-analysis of the deposited data

Results flagged for a closer look

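In 68 groups of 4 libraries (20 named genes and 14 sums of cell type markers, in NC and in 0 h p.r.), 3 values lay far from the other 3 of their group by Dixon's test at the 95% level, where chance alone gives about 1 in 20 groups. Ptger2 was 1.85 FPKM in NC replicate 4 and 0.974 to 1.09 in the other NC libraries. Slco2a1 was 33.7 FPKM in the same library and 21.5 to 23.3 in the others. Tbxa2r was 1.55 FPKM in NC replicate 2 and 1.03 to 1.12 in the others.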

How the results depend on the processing

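Over 20 named genes, 336 values under alternative settings kept direction and side of the adjusted p threshold in 294 cases, fell short of it in 29, passed it in 9 and changed sign in 4. The changes of sign were in genes near 0: Alox5 (-0.01 without 0 h p.r. replicate 4, range -0.01 to 0.56 over the libraries left out), Prxl2b (-0.40 without 0 h p.r. replicate 1, range -0.40 to 0.48) and Ptgr1 (0.00 with array weights and 0.04 without NC replicate 2, range -0.23 to 0.04). The count of members called at both thresholds stayed at 0 except without 0 h p.r. replicate 1 (1, Ptgs2) and for the adjusted p at any fold (1, Ptger4), so that leaving out a library gave 0 to 1. For the pathway list it was 0 with each library scaled to the same total, 1 with the replicate number as a block, 3 with array weights, 3 for the adjusted p at any fold, and 0 to 2 when a library was left out. For all genes it was 374, against 166 with this scaling, 212 with the replicate block, 793 for the adjusted p at any fold, and 195 to 516 without 1 library. The same scaling gave Ptger4 an adjusted p of 0.270, Ptgir 0.111 and Ptger3 0.0932, and the cause was not tested. With array weights, Ptgs1 (0.0130), Ptgs2 (0.0275), Hpgd (0.0461), Pla2g2a (0.0126) and Tbxa2r (0.0438) also had an adjusted p under 0.05. Ptgs2, Ptger2, Hpgd and Tbxa2r have no value at a mean FPKM of at least 2, which leaves them out. Replicate numbers gave no sign of pairing the rats: same-numbered libraries correlated at -0.141 to 0.0717 in their deviations from the group means, and no NC library correlated best with the 0 h p.r. library of its own number. The labels do not say whether equal numbers shared any step of handling, and these correlations cannot exclude it. The paired fit (replicate block) gave Ptger4 an adjusted p of 0.125, Ptger3 0.0983 and Cysltr1 0.125. The median change over all tested genes lay between -0.027 and 0.012 in all of these settings. Among the members the standard error of the log2 change was largest for Alox12 (0.45), Ptges (0.43) and Alox5 (0.37), and Ptgs2, Ptger2 and Hpgd had the fewest reads.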
